A study of Mus musculus with 12 samples.

Results

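Imprinted genes are expressed mainly from the allele inherited from 1 parent, and they lie in domains that share an imprinting control region. A list of 45 imprinted mouse genes, arranged by domain and by the parental allele that is usually expressed, was followed in embryonic stem cells (ESCs) in which Yes-associated protein (YAP) had been depleted or overexpressed. All 45 symbols were among the 24480 genes of the tables, and 39 of them, from 17 of 20 domains, had at least 10 expected counts per library on average and were tested in both experiments. Of these 39 genes, 19 are usually expressed from the maternal and 20 from the paternal allele, and for 14 of them imprinting is known only in some tissues or for some isoforms. The other 6 genes were below the limit with mean expected counts of 0.0833 for Kcnk9, 1.08 for Rasgrf1, 1.67 for Airn, 2.33 for Plagl1, 2.58 for Dcn and 8.33 for Peg13, and are not described further. Just above it were Zim1 with 20.4 and Dlk1 with 33.3.

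The cells were E14Tg2a ESCs, a feeder-independent mouse line kept pluripotent with leukemia inhibitory factor, and every group was transfected transiently. In the knockdown experiment Yap1 was targeted with Stealth siRNAs (YAP KD), and control cells took up scrambled siRNA (CTR KD). For overexpression, cells were given a plasmid with mouse YAP under the CAG promoter (YAP OE) or a control plasmid (CTR OE), which encodes GFP per the labels and is an empty vector per the study's methods. Each of the 4 groups had 3 libraries of total RNA from independent experiments, and all of them came from 1 cell line. Reads were counted per gene without regard to the allele, so a change of level cannot be assigned to the maternal or the paternal copy. In bulk RNA, fewer cells of a type and less RNA per cell cannot be told apart either.

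At an imprinted domain, DNA methylation laid down in 1 germ line marks the control region on that parental copy. Depending on the domain, the unmethylated copy binds an insulator protein or transcribes a long noncoding RNA, and neighbouring genes are silenced or activated on the same chromosome. Zinc finger proteins such as ZFP57 keep the marks through the reprogramming of the early embryo, and ESCs derive from that stage. Many imprinted genes act on fetal growth and on the placenta. YAP is a coactivator of the Hippo pathway that reaches DNA through TEAD transcription factors.

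The libraries held 42926260 to 57240700 expected counts, and 17618 to 18167 genes had a count. Yap1 itself fell in YAP KD (log2 fold change -1.14, SE 0.0568, adjusted p = 4.36e-05) and rose in YAP OE (0.97, SE 0.0470, adjusted p = 3.47e-08), as the labels say. None of 7 ESC marker genes was called in either experiment. Their summed level was 3775 to 3967 CPM in CTR KD, 3685 to 3864 CPM in YAP KD, 3735 to 3780 CPM in CTR OE and 3635 to 3793 CPM in YAP OE. Nanog, Zfp42 and Tfcp2l1 were lower in each YAP KD library than in the controls (log2 fold changes -0.13, -0.13 and -0.10), and Esrrb was lower with overlap (-0.16). Sox2, Klf4 and Pou5f1 had knockdown log2 fold changes of 0.03, 0.07 and 0.07. Markers of other cell types were present at lower levels and moved in part with the groups. The trophoblast list (10 genes, of which Elf5 stayed at 0.171 CPM or less in each library) summed to 118 to 131 CPM in CTR KD and 157 to 166 CPM in YAP KD. Of 6 tested genes, 2 were called higher, Tfap2c and Krt8, and Eomes was lower without a call (log2 fold change -0.32). The list summed to 154 to 168 CPM in CTR OE and 175 to 209.8 CPM in YAP OE. Of 9 tested, 4 were called higher, Cdx2, Gata3, Krt8 and Krt18, and Tfap2c was lower without a call (-0.16). Most of each sum came from Tfap2c, Krt8 and Krt18 (means 57.3, 34.3 and 28.9 CPM in CTR KD). Cdx2, Gata3 and Elf5 had means from 0.0512 to 0.261 CPM in the knockdown groups. For primitive endoderm genes the sums were 187 to 216 CPM in CTR KD, 178 to 203 CPM in YAP KD, 202 to 213 CPM in CTR OE and 223 to 235 CPM in YAP OE, with 0 of 10 tested genes called in the knockdown and 2 of 11 called higher in the overexpression. The mesoderm and ectoderm list summed to 84.6 to 89.6 CPM in CTR KD and 102 to 107 CPM in YAP KD. Of 6 tested genes, 2 were called higher, Nes and Tubb3 (means 21.8 and 43.7 CPM in CTR KD). T, Mixl1 and Pax6 had log2 fold changes of -0.27, -0.32 and -0.04 there, and Sox1 0.08, none called. The list summed to 93.6 to 94.1 CPM in CTR OE and 83.3 to 85.4 CPM in YAP OE. Of 6 tested, 1 was called lower, Tubb3, and T and Sox1 were above 0 without a call. Afp of that list was at 0 in all 6 knockdown libraries. Whether cells of other types were present and took part in the results below was not tested.

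A gene was called when its adjusted p-value in the edgeR quasi-likelihood test was under 0.05, with Benjamini-Hochberg adjustment over all genes tested. Levels are read counts relative to library size, scaled by TMM factors (CPM), each experiment on its own, and values are listed in the order of replicates 1, 2 and 3. After YAP knockdown, 9 of the 39 imprinted genes (23.1%) were called, against 5.49% of all 14606 genes tested. Cdkn1c, Sfmbt2, Ndn and Peg3 rose, 4 genes against 2.71% of all genes called higher, and Sgce, Cd81, Grb10, Phlda2 and Mest fell, 5 genes against 2.78% called lower. After YAP overexpression, 7 of 39 (17.9%) were called, against 2.13% of 14804 genes tested. H19, Igf2, Peg10, Sgce, Grb10, Slc38a4 and Ascl2 rose (1.66% of all genes called higher) and none fell (0.473% called lower). The 39 genes had no common direction: the median log2 fold change was -0.05 after knockdown and 0.04 after overexpression, beside 0.01 and 0.00 over all genes tested. A total of 14 imprinted genes were called in at least 1 experiment, and 2, Sgce and Grb10, in both. The 39 genes come from a list chosen with earlier results of these data known, and all genes tested were not matched to them for level. The shares here and below are therefore descriptions and do not show an excess among imprinted genes. In a second list of imprinted genes, 2 of 32 tested were called in each experiment.

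**Figure D1:**
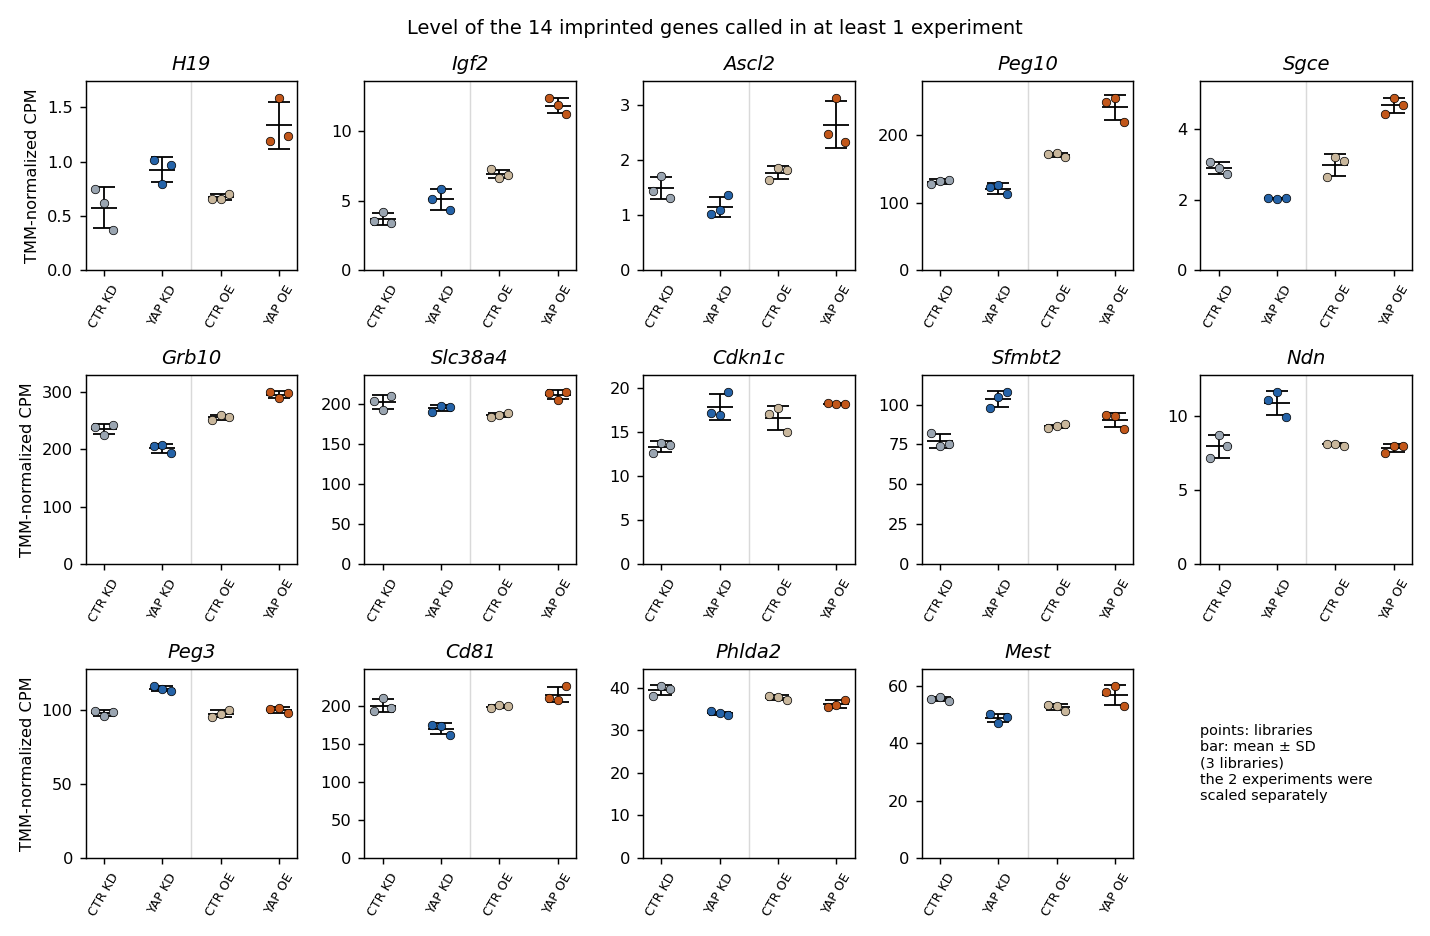
Level of each of the 14 imprinted genes called in at least 1 experiment, in TMM-normalized CPM on linear axes from 0, by group; points are libraries and bars mean ± SD of 3 libraries. H19, Igf2, Peg10, Sgce, Grb10 and Slc38a4 sit higher in YAP OE than in CTR OE in each library, and Sgce, Grb10, Cd81, Phlda2 and Mest sit lower in YAP KD than in CTR KD.

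Most of the knockdown calls were lost when 1 library was left out. Only 2 imprinted genes were called without CTR KD replicate 3, YAP KD replicate 1 or YAP KD replicate 2. Calls over all genes also fell in these fits, to 298, 360 and 306 from 802. The number was 4 without YAP KD replicate 3 and 7 without CTR KD replicate 1 (574 over all genes). Leaving out CTR KD replicate 2 gave 11 calls (1019 over all genes). Cdkn1c and Sfmbt2 were called in each of these 6 fits. In the overexpression, 4 were called without CTR OE replicate 1 or 3, 5 without CTR OE replicate 2 or YAP OE replicate 1, 6 without YAP OE replicate 2 and 7 without YAP OE replicate 3. H19, Igf2, Peg10 and Sgce were called in each of those 6 fits. Calls over all genes are not given for these overexpression fits or for the fit without YAP KD replicate 3. A drop in imprinted calls there cannot be told apart from a drop over all genes.

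Expression in the scrambled siRNA control spanned a wide range, compared here per kilobase of effective length in CTR KD. The highest levels were those of Cd81 with 149, Rian with 99.8, Gnas with 91.9, Commd1 with 88.5 and Phlda2 with 69.98 CPM per kilobase. At the low end were Usp29 with 0.134, Zim1 and Dlk1 with 0.142 each, Magel2 with 0.155 and H19 with 0.274 CPM per kilobase. Genes of 1 domain could thus stand far apart, as in the Dlk1/Meg3 domain, where the maternal noncoding RNAs Rian and Meg3 were abundant and the paternal Dlk1 was scarce.

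**Figure D2:**
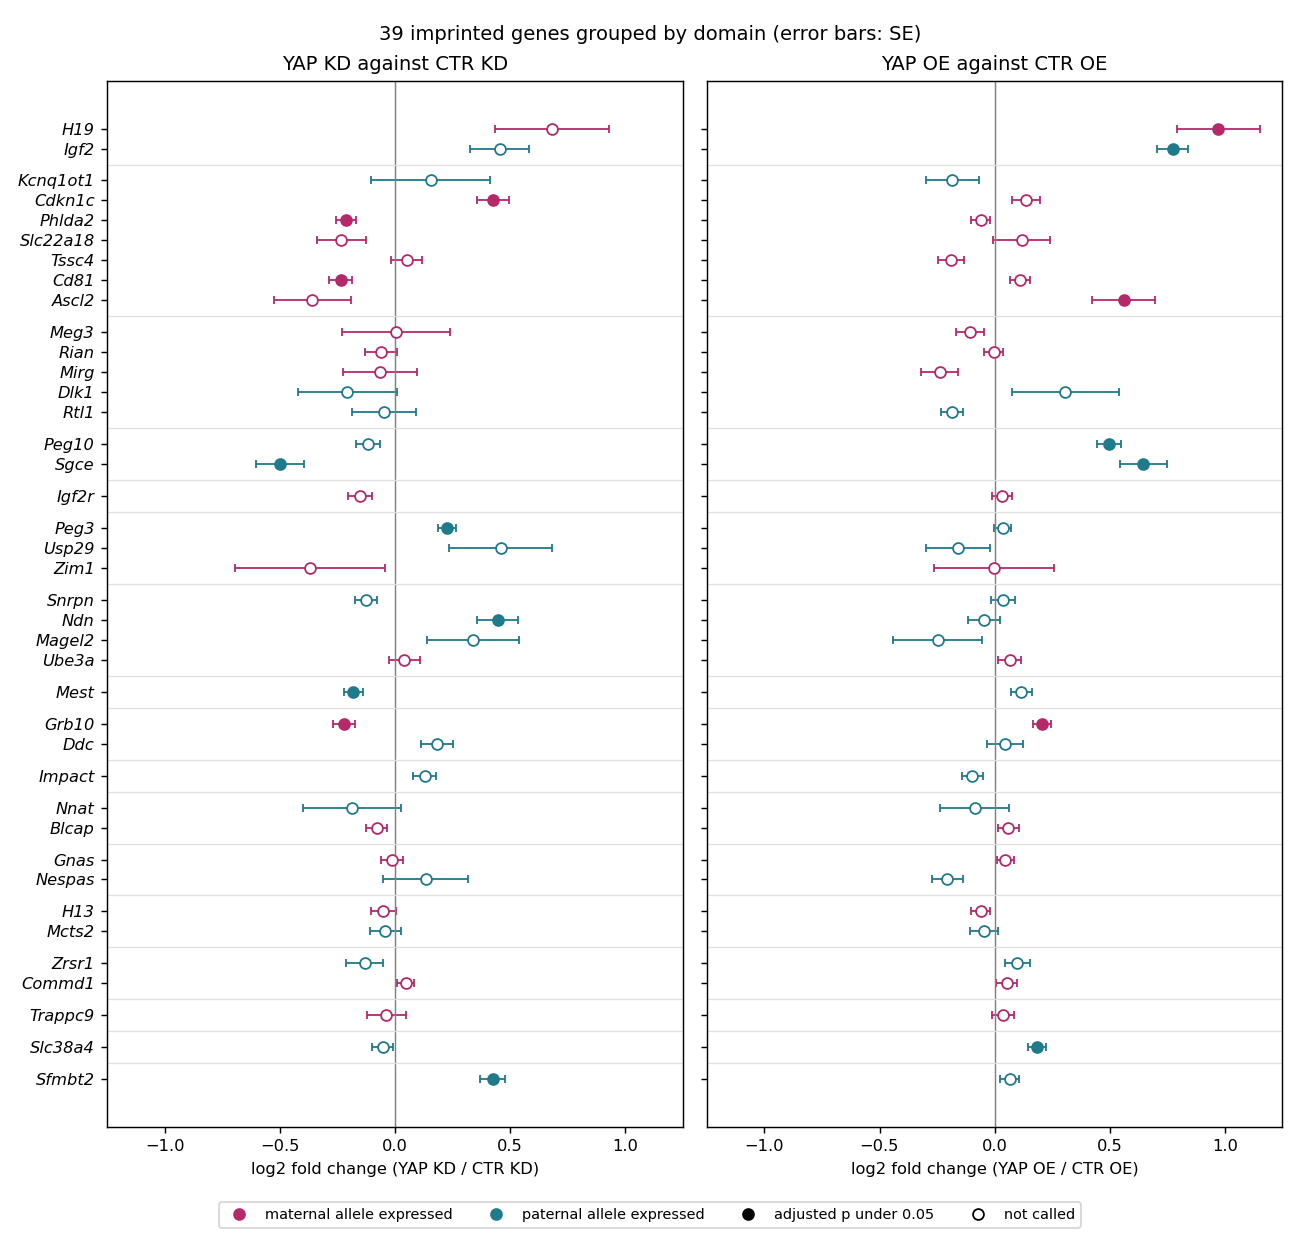
Log2 fold change (x axis) of the 39 imprinted genes grouped by domain, YAP KD against CTR KD on the left and YAP OE against CTR OE on the right; error bars are SE, colour gives the expressed allele and filled points have an adjusted p under 0.05. Called genes stand beside uncalled neighbours in the Kcnq1ot1, Peg10/Sgce, Peg3, Snrpn and Grb10/Ddc domains in the left panel, and all 7 called genes in the right panel lie above 0.

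In the H19/Igf2 domain on chromosome 7, the growth factor gene Igf2 is expressed from the paternal allele and the noncoding RNA H19 from the maternal allele, both from shared enhancers. The RefSeq promoter windows of Igf2 (GRCm38.p6, the mm10 build of the files, minus strand, 250 bases before to 50 bases after a transcript start) are shown because 3 of its 4 windows held CATTCC, the core of the TEAD binding motif. Capitals mark CATTCC or its reverse complement GGAATG, and TGCCGC or its reverse complement GCGGCA, the letters read by ZFP57.
Igf2, chr7:142657447-142657746: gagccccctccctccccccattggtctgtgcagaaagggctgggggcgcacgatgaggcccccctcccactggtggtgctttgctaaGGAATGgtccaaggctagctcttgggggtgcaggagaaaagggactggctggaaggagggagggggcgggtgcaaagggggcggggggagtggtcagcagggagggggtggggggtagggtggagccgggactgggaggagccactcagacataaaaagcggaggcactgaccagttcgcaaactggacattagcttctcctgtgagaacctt
Igf2, chr7:142658755-142659054: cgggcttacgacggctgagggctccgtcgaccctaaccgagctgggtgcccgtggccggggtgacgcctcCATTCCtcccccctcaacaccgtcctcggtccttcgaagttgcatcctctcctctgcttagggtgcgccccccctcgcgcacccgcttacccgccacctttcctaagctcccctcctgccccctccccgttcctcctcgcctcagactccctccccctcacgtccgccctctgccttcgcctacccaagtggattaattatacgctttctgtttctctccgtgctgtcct
Igf2, chr7:142661222-142661521: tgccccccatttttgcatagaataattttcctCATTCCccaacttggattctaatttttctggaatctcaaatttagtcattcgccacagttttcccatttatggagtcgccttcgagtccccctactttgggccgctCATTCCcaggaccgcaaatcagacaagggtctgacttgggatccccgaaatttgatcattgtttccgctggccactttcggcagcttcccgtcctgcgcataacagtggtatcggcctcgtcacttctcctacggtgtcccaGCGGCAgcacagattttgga
The third window held the CATTCC letters at 2 places and GCGGCA once. Over all 32851 RefSeq promoter windows of this length, 14.7% held CATTCC on either strand and 11.6% held TGCCGC, and a match of 6 letters is a description of the sequence and not a binding site.

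Both genes of this domain had higher levels in YAP OE. Igf2 (chr7:142650768-142666816) was at 7.27, 6.67 and 6.85 CPM in CTR OE and 12.4, 11.9 and 11.3 CPM in YAP OE, and the groups did not overlap. It rose by 0.77 on the log2 scale (SE 0.0682, adjusted p = 1.85e-05). H19 (chr7:142575530-142578146) was at 0.658, 0.657 and 0.704 CPM in CTR OE and 1.19, 1.58 and 1.23 CPM in YAP OE, again without overlap. It rose as well (log2 fold change 0.97, SE 0.181, adjusted p = 0.00891). H19 rested on 18 to 69 expected counts per library, so its levels are less precise than those of the other called genes.

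In the knockdown the same genes stood above their controls in each library but were not called. Igf2 was at 3.55, 4.204 and 3.41 CPM in CTR KD and 5.13, 5.88 and 4.38 CPM in YAP KD (log2 fold change 0.45, SE 0.127, adjusted p = 0.0749). H19 was at 0.745, 0.619 and 0.372 CPM in CTR KD and 1.02, 0.795 and 0.969 CPM in YAP KD (log2 fold change 0.68, SE 0.247, adjusted p = 0.157). Thus the fold changes of both genes were above 0 in both experiments, opposite to the direction of Yap1 in the knockdown. The Igf2 comparison passed the threshold without CTR KD replicate 2, with DESeq2, without the low-count filter and in a fit over all 12 libraries, with adjusted p-values from 0.0180 to 0.246 over all alternatives. Igf2 was also higher in CTR OE than in CTR KD, but the 2 control groups differ in what was transfected and were scaled separately, so this gap cannot be told apart from the experiment. Of the difference between the YAP effects, the estimate was 0.29 (SE 0.303, adjusted p = 0.641) for H19 and 0.32 (SE 0.142, adjusted p = 0.189) for Igf2, and neither was called.

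The domain of Peg10 and Sgce on chromosome 6 held the gene with the largest difference between the experiments among the 39. Peg10, derived from a retrotransposon and needed for placenta formation (chr6:4747306-4760517), and Sgce, which encodes epsilon-sarcoglycan (chr6:4674350-4747204), are both expressed from the paternal allele in opposite orientations, with starts 102 bases apart. Peg10 was at 172, 173 and 167 CPM in CTR OE and 249, 254 and 219.6 CPM in YAP OE (log2 fold change 0.50, SE 0.0507, adjusted p = 9.28e-05), so it rose with no overlap. Sgce was at 2.63, 3.204 and 3.101 CPM in CTR OE and 4.43, 4.87 and 4.68 CPM in YAP OE and rose too (log2 fold change 0.65, SE 0.103, adjusted p = 0.00274). In the knockdown Sgce was at 3.07, 2.89 and 2.73 CPM in CTR KD and 2.05, 2.02 and 2.05 CPM in YAP KD, and it fell (log2 fold change -0.50, SE 0.104, adjusted p = 0.0232). Its call there was lost without any 1 library other than CTR KD replicate 2 and with DESeq2 (adjusted p up to 0.0965), with log2 fold changes from -0.54 to -0.47 when 1 library was left out. Peg10 was at 127, 132 and 134 CPM in CTR KD and 124, 127 and 112 CPM in YAP KD (log2 fold change -0.12, SE 0.0515, adjusted p = 0.244), lower in each YAP KD library than in the controls and not called. The YAP effects differed between the experiments by 1.15 (SE 0.138, adjusted p = 0.000102) for Sgce and by 0.62 (SE 0.0783, adjusted p = 0.000163) for Peg10 on the log2 scale.

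In the Kcnq1ot1 domain on chromosome 7, the paternal noncoding RNA Kcnq1ot1 silences neighbouring genes that are expressed from the maternal allele, and 6 of these were measured with it. For Cd81, Tssc4 and Ascl2 among them, imprinting is known only in some tissues or for some isoforms. Whether Kcnq1ot1 silences them in these ESCs was not measured. In the knockdown, Cdkn1c, which encodes the cell cycle inhibitor p57 (chr7:143458339-143461059), was at 12.6, 13.8 and 13.6 CPM in CTR KD and 17.1, 16.9 and 19.5 CPM in YAP KD. It rose with no overlap of the groups (log2 fold change 0.43, SE 0.0698, adjusted p = 0.00831). Phlda2, a regulator of placental growth (chr7:143501545-143503145), was at 38.1, 40.4 and 39.7 CPM in CTR KD and 34.4, 33.9 and 33.7 CPM in YAP KD. It fell (log2 fold change -0.21, SE 0.0424, adjusted p = 0.0198). Cd81, a tetraspanin (chr7:143052750-143067930), was at 193, 209 and 197 CPM in CTR KD and 174, 173 and 161 CPM in YAP KD. It also fell (log2 fold change -0.24, SE 0.048, adjusted p = 0.0212), so called genes of 1 domain moved in opposite directions. The calls of Phlda2 and Cd81 were lost without CTR KD replicate 3 or without any 1 of the YAP KD libraries, with log2 fold changes from -0.24 to -0.20 and from -0.27 to -0.20.

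In YAP OE, Ascl2 was the 1 called gene of the Kcnq1ot1 domain. It encodes a transcription factor required for the spongiotrophoblast of the placenta (chr7:142966822-142969264) and was at 1.64, 1.85 and 1.83 CPM in CTR OE and 2.47, 3.12 and 2.32 CPM in YAP OE (log2 fold change 0.56, SE 0.137, adjusted p = 0.0459). YAP OE replicate 2 was the highest, and the groups did not overlap. The call was lost with DESeq2, limma-voom, a fit over all 12 libraries and total-count scaling, and in 5 of 6 fits that left out 1 library (adjusted p from 0.00642 to 0.181 over all alternatives). In the knockdown Ascl2 was at 1.45, 1.71 and 1.32 CPM in CTR KD and 1.02, 1.09 and 1.36 CPM in YAP KD (log2 fold change -0.36, SE 0.168, adjusted p = 0.277), with overlapping groups. The YAP effects on Ascl2 differed by 0.92 (SE 0.218, adjusted p = 0.0148), and those on Cd81 by 0.35 (SE 0.0643, adjusted p = 0.00307). In the overexpression Cd81 was at 197, 200.3 and 199 CPM in CTR OE and 210.2, 207 and 226 CPM in YAP OE (log2 fold change 0.11, SE 0.0422, adjusted p = 0.252) and Cdkn1c at 17, 17.7 and 15.05 CPM in CTR OE and 18.3, 18.2 and 18.1 CPM in YAP OE (log2 fold change 0.13, SE 0.0602, adjusted p = 0.347). Both were above the controls in each library and neither was called.

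The transporter gene Slc22a18 had 2.63, 2.42 and 2.73 CPM in CTR KD and 2.27, 2.18 and 2.16 CPM in YAP KD (log2 fold change -0.23, SE 0.105, adjusted p = 0.259) and 2.19, 2.09 and 2.397 CPM in CTR OE and 2.63, 2.09 and 2.503 CPM in YAP OE (log2 fold change 0.12, SE 0.124, adjusted p = 0.767). Tssc4 had 19.8, 20.9 and 17.8 CPM in CTR KD and 21.1, 19.8 and 19.7 CPM in YAP KD (log2 fold change 0.05, SE 0.0663, adjusted p = 0.748) and 21.8, 19.4 and 20.4 CPM in CTR OE and 17.8, 17.1 and 19.1 CPM in YAP OE (log2 fold change -0.19, SE 0.0577, adjusted p = 0.123). Neither was called, although Tssc4 was below its controls in each YAP OE library. Phlda2 was at 38.1, 37.9 and 36.97 CPM in CTR OE and 35.4, 35.9 and 37.1 CPM in YAP OE (log2 fold change -0.06, SE 0.0412, adjusted p = 0.596), with overlap.

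The noncoding RNA of the domain itself varied more between replicates than between groups. Kcnq1ot1 (chr7:143213111-143296547) was at 176, 81.8 and 123 CPM in CTR KD and 97.4, 148 and 177 CPM in YAP KD (log2 fold change 0.15, SE 0.26, adjusted p = 0.811). CTR KD replicate 1 and YAP KD replicate 3 were the highest and CTR KD replicate 2 and YAP KD replicate 1 the lowest, so each group held both a high and a low library. It was at 127, 157 and 176 CPM in CTR OE and 153, 146 and 107 CPM in YAP OE (log2 fold change -0.18, SE 0.115, adjusted p = 0.547), lowest in YAP OE replicate 3. Its biological coefficient of variation (BCV), the edgeR estimate of spread between replicates, came to 22.1% among knockdown and 9.94% among overexpression libraries. Over all genes tested the median BCV was 5.42% and 4.53%, and the 39 imprinted genes had medians of 5.55% and 4.36%.

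Transcripts of other imprinted domains varied in a similar way over the knockdown libraries. Meg3, the maternal noncoding RNA of the Dlk1/Meg3 domain on chromosome 12 (chr12:109540996-109571729), was at 139, 71.4 and 87.03 CPM in CTR KD and 72.1, 108 and 118 CPM in YAP KD. Nespas, the antisense RNA of the Gnas domain (chr2:174281237-174295436), was at 18.7, 11.6 and 12.9 CPM in CTR KD and 11.97, 17.01 and 17.95 CPM in YAP KD. Mirg, a maternal host transcript of microRNAs, was at 12.3, 8.45 and 9.17 CPM in CTR KD and 7.37, 10.9 and 10.2 CPM in YAP KD. For all of them CTR KD replicate 1 was the highest and CTR KD replicate 2 or YAP KD replicate 1 the lowest. Rtl1, a retrotransposon-derived gene, was at 32.6, 22.3 and 24.5 CPM in CTR KD and 21.3, 27.6 and 27.6 CPM in YAP KD. Rian, a host transcript of small nucleolar RNAs, was at 375, 307 and 339 CPM in CTR KD and 306, 339 and 333 CPM in YAP KD and had the narrowest range of these. The BCV in the knockdown was 19.9% for Meg3, 15.5% for Nespas, 13.3% for Mirg, 11.8% for Rtl1 and 6.67% for Rian, and in the overexpression between 3.84% and 5.82%. Small RNA entries (effective length below 100 bases) took 12.8% of the expected counts in CTR KD replicate 2 and 12.9% in YAP KD replicate 1, and 11.02% to 12.1% in the other 4 knockdown libraries. In the overexpression they took 13.2% in YAP OE replicate 3 and 10.3% to 12.1% in the others. The part of the small RNA share in these levels was not tested.

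**Figure D3:**
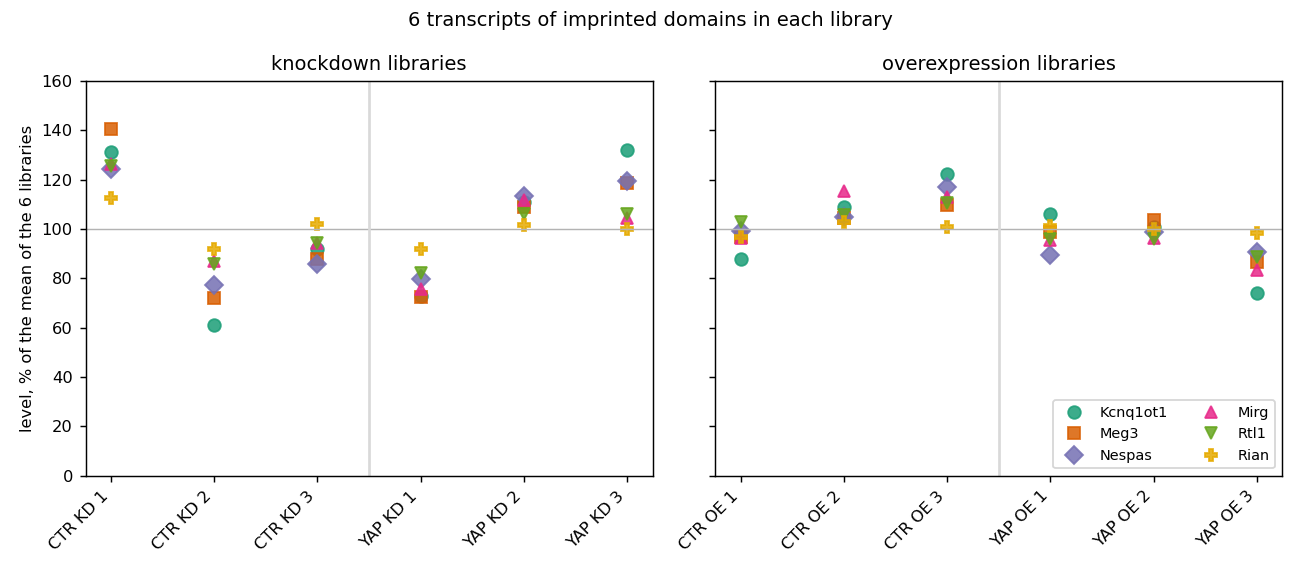
Level of Kcnq1ot1, Meg3, Nespas, Mirg, Rtl1 and Rian in each library as percent of the mean of the 6 libraries of its experiment (y axis from 0), knockdown on the left and overexpression on the right. In the knockdown, Kcnq1ot1 runs from 61.2% in CTR KD replicate 2 to 132% in YAP KD replicate 3, and CTR KD replicate 2 and YAP KD replicate 1 are below 100% for all 6 transcripts.

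None of the 5 genes of the Dlk1/Meg3 domain was called. In the overexpression Rtl1 was at 29.1, 29.9 and 31.2 CPM in CTR OE and 27.2, 27.1 and 25.1 CPM in YAP OE (log2 fold change -0.19, SE 0.0484, adjusted p = 0.0654), below its controls in each library. It was the gene of this domain nearest to a call, and it passed the threshold without the low-count filter (adjusted p = 0.0266). Mirg was at 10.4, 12.5 and 12.3 CPM in CTR OE and 10.4, 10.5 and 9.07 CPM in YAP OE (log2 fold change -0.24, SE 0.0798, adjusted p = 0.175), and Meg3 and Rian overlapped between the groups (log2 fold changes -0.11 and -0.0043). The Notch-like ligand gene Dlk1 ranged from 0.476 to 0.9298 CPM over the 12 libraries. Of the microRNA genes annotated inside the imprinted genes, 33 were in the tables, 31 of them were at 0 in each library and no value exceeded 1 expected count, so microRNA levels are not described. The strand setting of the counting is not given in the sources used here, and reads of Rtl1, Nespas and Kcnq1ot1 cannot be told apart from those of the genes they overlap on the other strand.

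In the Grb10/Ddc domain on chromosome 11, the gene for the adaptor GRB10, which restrains insulin and IGF receptor signalling, moved in opposite directions with YAP depletion and overexpression. Its RefSeq promoter window that held the ZFP57 letters (GRCm38.p6, minus strand, capitals mark GCGGCA) is shown because Grb10 was called in both experiments.
Grb10, chr11:12037371-12037670: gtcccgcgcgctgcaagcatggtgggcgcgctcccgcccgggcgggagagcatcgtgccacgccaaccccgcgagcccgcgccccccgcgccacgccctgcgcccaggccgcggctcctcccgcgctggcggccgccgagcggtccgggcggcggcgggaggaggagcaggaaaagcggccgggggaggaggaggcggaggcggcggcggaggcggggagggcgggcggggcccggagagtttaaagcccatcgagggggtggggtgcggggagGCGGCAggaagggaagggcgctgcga
Grb10 (chr11:11930499-12037428) was at 238, 225 and 242 CPM in CTR KD and 205, 207 and 193 CPM in YAP KD, and fell (log2 fold change -0.22, SE 0.0458, adjusted p = 0.023). It was at 251, 260.1 and 256 CPM in CTR OE and 299, 288 and 297 CPM in YAP OE, and rose (log2 fold change 0.21, SE 0.0393, adjusted p = 0.0106). The groups were separate in both experiments, and the YAP effects differed by 0.43 (SE 0.0567, adjusted p = 0.000224). In the knockdown the call was lost without any 1 library other than CTR KD replicate 2 (log2 fold change -0.25 to -0.19), and in the overexpression without CTR OE replicate 1 or 3 (0.19 to 0.22). Ddc, for aromatic L-amino acid decarboxylase, is expressed from the paternal allele in some tissues. It was at 7.16, 8.11 and 7.95 CPM in CTR KD and 8.98, 8.72 and 8.71 CPM in YAP KD (log2 fold change 0.18, SE 0.0701, adjusted p = 0.181), above the controls and not called, and at 6.38, 6.41 and 6.35 CPM in CTR OE and 6.22, 7.11 and 6.45 CPM in YAP OE (log2 fold change 0.04, SE 0.0778, adjusted p = 0.882).

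In the Peg3 domain on chromosome 7, Peg3 encodes a zinc finger protein and Usp29 a member of the ubiquitin-specific proteases. Both are expressed from the paternal allele and run in opposite directions from starts 97 bases apart, so that their promoter windows cover nearly the same DNA. The Peg3 window (GRCm38.p6, minus strand) is shown because it holds 1 TEAD core, in capitals as GGAATG.
Peg3, chr7:6730370-6730669: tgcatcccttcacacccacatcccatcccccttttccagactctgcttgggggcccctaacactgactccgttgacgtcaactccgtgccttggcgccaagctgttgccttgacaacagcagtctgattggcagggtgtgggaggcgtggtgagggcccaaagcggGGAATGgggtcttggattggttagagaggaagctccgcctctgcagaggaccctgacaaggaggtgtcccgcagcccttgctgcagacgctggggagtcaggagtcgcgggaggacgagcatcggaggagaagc
Peg3 (chr7:6703892-6730462) was at 99.5, 95.9 and 98.2 CPM in CTR KD and 116, 114 and 113 CPM in YAP KD, and it rose with no overlap (log2 fold change 0.22, SE 0.0382, adjusted p = 0.00952). It was at 95.5, 97.05 and 99.9 CPM in CTR OE and 100.4, 101 and 97.9 CPM in YAP OE (log2 fold change 0.03, SE 0.0374, adjusted p = 0.776), and the difference of the YAP effects was -0.19 (SE 0.0482, adjusted p = 0.0226). That difference was not called without YAP KD replicate 1 (-0.17, adjusted p = 0.0593), CTR OE replicate 3 (-0.17, adjusted p = 0.0720) or YAP OE replicate 3 (-0.17, adjusted p = 0.0518). The knockdown call was lost without CTR KD replicate 3, YAP KD replicate 1 or YAP KD replicate 2, with log2 fold changes from 0.21 to 0.23 when 1 library was left out. Usp29 was at 1.12, 0.713 and 1.11 CPM in CTR KD and 1.205, 1.11 and 1.66 CPM in YAP KD (log2 fold change 0.46, SE 0.223, adjusted p = 0.297), with CTR KD replicate 2 the lowest, and at 1.45, 1.44 and 1.52 CPM in CTR OE and 1.32, 1.24 and 1.38 CPM in YAP OE (log2 fold change -0.16, SE 0.14, adjusted p = 0.702). The maternally expressed zinc finger gene Zim1 ranged from 0.2598 to 0.657 CPM and was not called. Counts of Usp29 were not whole in any library and those of Peg3 in 4, so reads were shared with other genes.

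In the Snrpn domain, Ndn, for the MAGE family growth suppressor necdin (chr7:62348277-62349928), was at 7.16, 8.75 and 8.01 CPM in CTR KD and 11.1, 11.6 and 9.99 CPM in YAP KD. It rose (log2 fold change 0.45, SE 0.0886, adjusted p = 0.0198). It was at 8.16, 8.15 and 8.01 CPM in CTR OE and 7.54, 7.99 and 8.03 CPM in YAP OE (log2 fold change -0.05, SE 0.0678, adjusted p = 0.848), with overlap, and the YAP effects differed by -0.49 (SE 0.109, adjusted p = 0.0106). Its neighbour Magel2, of the same family, was at 0.657, 0.7695 and 0.661 CPM in CTR KD and 1.06, 0.885 and 0.727 CPM in YAP KD (log2 fold change 0.34, SE 0.2, adjusted p = 0.403), and its groups overlapped. Snrpn, for a spliceosomal protein, was at 105, 94.97 and 101 CPM in CTR KD and 93.7, 91.9 and 90.2 CPM in YAP KD (log2 fold change -0.13, SE 0.0466, adjusted p = 0.161), lower in each YAP KD library and not called. The ubiquitin ligase gene Ube3a, imprinted in neurons, was at 118, 99.3 and 122 CPM in CTR KD and 113, 118 and 118 CPM in YAP KD (log2 fold change 0.04, SE 0.0691, adjusted p = 0.816). Of the paternally expressed Ndn, Magel2 and Snrpn, Ndn alone was called in the knockdown, and the estimates were above 0 for Ndn and Magel2 and below 0 for Snrpn. In the overexpression none of the 4 genes was called, with log2 fold changes from -0.25 to 0.06. The Ndn call was lost without CTR KD replicate 3, YAP KD replicate 1 or YAP KD replicate 2, with log2 fold changes from 0.37 to 0.52. Counts of Snrpn were not whole in any library.

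Sfmbt2, a Polycomb group gene expressed from the paternal allele in early embryos and extraembryonic tissue (chr2:10370440-10595253), was at 82.4, 73.9 and 75.3 CPM in CTR KD and 98.1, 105 and 108 CPM in YAP KD. It rose, with the lowest adjusted p-value of the imprinted genes in the knockdown (log2 fold change 0.42, SE 0.0543, adjusted p = 0.00271). The RefSeq window at its downstream start (GRCm38.p6, plus strand) is shown as the 1 of its 2 windows with a TEAD core, in capitals.
Sfmbt2, chr2:10372186-10372485: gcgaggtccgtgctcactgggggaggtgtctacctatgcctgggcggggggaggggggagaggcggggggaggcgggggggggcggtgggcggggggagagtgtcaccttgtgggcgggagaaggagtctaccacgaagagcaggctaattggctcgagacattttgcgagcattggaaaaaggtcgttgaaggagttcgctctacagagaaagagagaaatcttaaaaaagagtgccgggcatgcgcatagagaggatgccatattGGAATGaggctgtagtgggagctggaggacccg
In the overexpression it was at 85.1, 86.3 and 87.5 CPM in CTR OE and 93.5, 92.6 and 84.98 CPM in YAP OE (log2 fold change 0.07, SE 0.0421, adjusted p = 0.562), with overlap, and the YAP effects differed by -0.36 (SE 0.0695, adjusted p = 0.00446). Mest, which encodes an alpha/beta hydrolase-like protein of the mesoderm (chr6:30733506-30748466), was at 55.4, 56.1 and 54.9 CPM in CTR KD and 50.2, 47.2 and 49.3 CPM in YAP KD, and it fell (log2 fold change -0.18, SE 0.041, adjusted p = 0.0328). It was at 53.3, 53.2 and 51.3 CPM in CTR OE and 57.9, 60.1 and 53.2 CPM in YAP OE (log2 fold change 0.12, SE 0.046, adjusted p = 0.265), and the YAP effects differed by 0.30 (SE 0.0631, adjusted p = 0.00729). When libraries were left out singly, Mest stayed called without CTR KD replicate 2 and not without any of the others (log2 fold change -0.20 to -0.16), and its counts were not whole in any library.

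Slc38a4, an amino acid transporter gene expressed from the paternal allele in the placenta and other tissues (chr15:96994816-97055956), was at 183, 186 and 188 CPM in CTR OE and 214, 204 and 214 CPM in YAP OE. It rose without overlap (log2 fold change 0.19, SE 0.0388, adjusted p = 0.0192). The call was lost without any 1 of the CTR OE libraries or without YAP OE replicate 1, with log2 fold changes from 0.17 to 0.21. It was at 203, 192 and 209.5 CPM in CTR KD and 190.0, 197 and 196 CPM in YAP KD (log2 fold change -0.05, SE 0.0438, adjusted p = 0.559), with overlap, and the YAP effects differed by 0.24 (SE 0.0546, adjusted p = 0.0114). Igf2r, whose protein removes IGF2 from the cell surface, was at 154, 176 and 167 CPM in CTR KD and 151, 149 and 148 CPM in YAP KD (log2 fold change -0.15, SE 0.0511, adjusted p = 0.129). It was below its controls in each library and not called, except in the fit without CTR KD replicate 1 (adjusted p = 0.0419). In the overexpression it was at 172, 165 and 181 CPM in CTR OE and 176, 183 and 169.9 CPM in YAP OE (log2 fold change 0.03, SE 0.0444, adjusted p = 0.837).

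The remaining genes were called in neither experiment. Impact, a regulator of translation under amino acid starvation, was at 205, 184 and 192 CPM in CTR KD and 213, 218 and 204 CPM in YAP KD (log2 fold change 0.13, SE 0.0492, adjusted p = 0.183) and at 203, 199 and 202 CPM in CTR OE and 203, 181 and 181 CPM in YAP OE (log2 fold change -0.10, SE 0.047, adjusted p = 0.407), with overlap in both. The neuronatin gene Nnat ranged from 1.205 to 2.34 CPM and its neighbour Blcap from 24.4 to 26.9 CPM. Gnas, which encodes the stimulatory G protein subunit, ranged from 126 to 151 CPM, Commd1, a regulator of copper handling and NF-kB, from 54.3 to 61.8 CPM, and Zrsr1, which lies in a Commd1 intron, from 12.8 to 16.2 CPM. Trappc9, for a vesicle trafficking subunit, ranged from 27.5 to 35.2 CPM, Mcts2, which lies in an H13 intron, from 10.3 to 12.8 CPM, and H13, for signal peptide peptidase, from 32.9 to 37.7 CPM. Nespas was at 16.02, 16.9 and 18.9 CPM in CTR OE and 14.4, 15.9 and 14.6 CPM in YAP OE (log2 fold change -0.21, SE 0.0656, adjusted p = 0.149), below its controls in each library without passing the test. Over all 25 genes called in neither experiment, log2 fold changes ran from -0.37 to 0.46 in the knockdown and from -0.25 to 0.31 in the overexpression.

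H13 is imprinted through its transcript ends, longer transcripts coming from the maternal allele. Its abundance-weighted mean transcript length averaged 4117 ± 76.8 bases (SD, n = 3) for CTR KD libraries and 4283 ± 91.6 bases for YAP KD. The ranges, 4062 to 4205 and 4211 to 4386 bases, did not overlap but came within a few bases of each other. In the overexpression the controls had 4238 ± 118 and YAP OE 4183 ± 164 bases, with overlap. The length is an estimate of isoform use by RSEM and was not tested. For Gnas it ranged from 1604 to 1642 bases, and for Grb10 and Mest it moved within 5081 to 5086 and 2569 to 2574 bases over all groups.

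By parental allele, calls of the knockdown went in both directions for either allele, and those of the overexpression were all higher. In the knockdown, 4 of 19 maternally expressed genes were called (1 higher, 3 lower) with a median log2 fold change of -0.06, and 5 of 20 paternally expressed genes (3 higher, 2 lower) with a median of 0.04. In the overexpression, 3 of 19 maternally expressed genes (median 0.05) and 4 of 20 paternally expressed genes (median 0.03) were called. Of the 14 genes imprinted only in some tissues or isoforms, 3 were called in each experiment, and of the other 25, 6 and 4. Libraries of YAP KD and CTR KD did not overlap for 18 of 39 genes (46.2%; 8 above, 10 below), against 25.9% of all genes tested (13.2% above, 12.7% below). In the overexpression this held for 14 of 39 (35.9%; 10 above, 4 below), against 18.1% (10.3% above, 7.8% below).

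The difference between the YAP effects, that is the overexpression effect minus the knockdown effect in 1 fit over all 12 libraries, was called for 10 of 39 imprinted genes (25.6%), against 8.8% of 15049 genes tested. It was above 0 for 7 genes (5.24% of all genes) and below 0 for 3 (3.56%). For 8 of the 10 genes, Ascl2, Cd81, Grb10, Mest, Ndn, Peg10, Sgce and Slc38a4, the knockdown and overexpression estimates had opposite signs, and for Peg3 and Sfmbt2 the same sign with a smaller size in the overexpression.

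**Figure D4:**
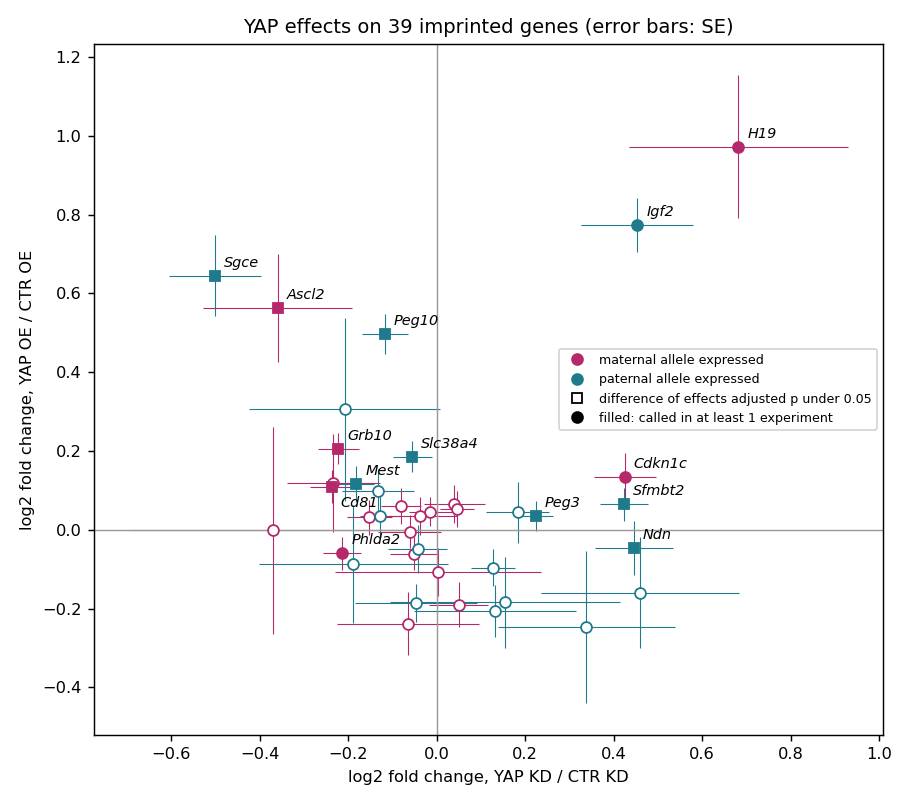
YAP effect on the 39 imprinted genes in the knockdown (x axis) and the overexpression (y axis), both as log2 fold change with SE bars; colour gives the expressed allele, squares have a called difference between the effects and filled symbols are called in at least 1 experiment. Sgce, Ascl2, Peg10 and Grb10 lie at the upper left, H19 and Igf2 at the upper right with values above 0 on both axes.

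Promoter sequence was compared across the genes that had an entry in the RefSeq table. Of the 39 genes 31 matched, with 49 windows of 300 bases. CATTCC or GGAATG was in 10 windows (20.4%) of 8 genes, against 14.7% of all 32851 windows, and TGCCGC or GCGGCA in 10 windows (20.4%) of 9 genes, against 11.6%. By gene, 4481 of all 27025 genes had a window with CATTCC and 3527 one with TGCCGC. Some windows are not independent. Those of Peg3 and Usp29 cover nearly the same DNA with 1 CATTCC match each, and 2 nearly identical Mest windows hold 2 TGCCGC matches each. The median number of CpG dinucleotides per window was 13, against 7 over all windows. Among the 14 genes called in at least 1 experiment, 10 had an entry. CATTCC was in windows of Igf2, Peg3 and Sfmbt2 and TGCCGC in windows of Grb10, Igf2 and Mest, 3 genes each. The other genes called, Cdkn1c, H19, Peg10 and Sgce, had no entry. Among genes called in neither experiment, CATTCC was in windows of Commd1, Rian, Snrpn, Usp29 and Zim1. TGCCGC was in windows of the uncalled Commd1, Mcts2, Meg3, Nnat, Snrpn and Zim1. A link between these letters and the calls was not tested.

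Regulators of imprints and of DNA methylation, among them the TET enzymes that remove methylation, were followed as a list of 23 genes, all tested in both experiments. Dnmt3l, a cofactor of the de novo DNA methyltransferases, fell in the knockdown (log2 fold change -0.59, SE 0.0421, adjusted p = 0.000122) and rose in the overexpression (0.27, SE 0.0452, adjusted p = 0.00399), and the other 22 genes were called in neither. Among those 22 were Zfp57, its partner Trim28 and Zfp445. Dnmt3a, also of the 22, had estimates of opposite sign to those of Dnmt3l, 0.18 in the knockdown (adjusted p = 0.0715) and -0.10 in the overexpression (adjusted p = 0.319). Its difference between the YAP effects was called (-0.27, SE 0.0665, adjusted p = 0.0176). The median log2 fold change of the list was 0.03 after knockdown and -0.01 after overexpression.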

How the data were processed

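Total RNA of 12 libraries was sequenced by the authors. Reads were aligned with STAR to mm10 and assigned to RefSeq genes with RSEM (versions not given in the sources used here). The deposited tables give expected counts, which are estimated counts that RSEM splits between genes sharing sequence, and which are not normalized. The authors' deposited TPM and FPKM values (scaled by length and depth) were not used in tests. The transcript and effective lengths deposited by the authors served for levels per kilobase and for isoform use.

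Expected counts were rounded. The 6 libraries of an experiment were fitted by themselves in edgeR 4.0.16 (R 4.3.3) after filterByExpr and TMM scaling. The two-sided quasi-likelihood F test was used, p-values were adjusted by Benjamini-Hochberg across all genes tested, and the threshold was 0.05. The difference of effects was fitted over 12 libraries. The SE is the absolute log2 fold change divided by the square root of F. Alternatives used DESeq2 1.42.0, limma-voom 3.58.1, other scalings and filters, and left-out libraries. The fits were tested on simulated data. Each pair of replicates differed by more than sampling noise. Genes with at least 10 expected counts on average were described, with values per library for called genes and their domain partners. The members and lists were chosen with earlier results of these data known. Promoter windows came from RefSeq (GRCm38.p6) and were searched for exact letters on both strands. A count was taken as whole within 0.005.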

Additional observations from a re-analysis of the deposited data

Results flagged for a closer look

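The effect of YAP differed between the overexpression and the knockdown for 10 imprinted genes by the edgeR test of the difference itself (overexpression minus knockdown, log2 scale). The difference was 1.15 for Sgce, 0.92 for Ascl2, 0.62 for Peg10, 0.43 for Grb10, 0.35 for Cd81, 0.30 for Mest and 0.24 for Slc38a4, all higher with overexpression. It was -0.49 for Ndn, -0.36 for Sfmbt2 and -0.19 for Peg3, whose effect was higher in the knockdown. The difference for Peg3 was not called without YAP KD replicate 1, CTR OE replicate 3 or YAP OE replicate 3. The 2 experiments used different transfected nucleic acids and different controls, so the direction of YAP cannot be told apart from the kind of transfection in this comparison.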

How the results depend on the processing

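No recomputed fold change, of genes called or with an unadjusted p under 0.05 in the knockdown or overexpression or with a called difference, changed sign. In the knockdown, 9 or 10 imprinted genes were called under DESeq2 size factors, no low-count filter, a filter of 1 CPM in 3 libraries, DESeq2, limma-voom, small RNA entries left out, a fit over all 12 libraries and total-count scaling (the last chosen after seeing the data), against 9. Calls over all genes in these settings ranged from 719 (DESeq2) to 1261 (the fit over all 12 libraries), against 802. With the replicate number as a block, 2 were called (Cdkn1c and Sfmbt2), and 193 of all genes against 802. The sample titles do not say whether libraries of the same number were made together, and the paper states that its t tests used paired samples. The correlation of deviations of same-numbered libraries was -0.36, -0.23 and 0.02 in the knockdown and 0.04, 0.06 and -0.02 in the overexpression. Not every library correlated best with its own number. With 3 libraries per group these correlations cannot decide whether the numbers pair the libraries, so the fit with the block stands beside the main fit. Leaving out 1 library gave 2 to 11 calls in the knockdown, 4 to 7 in the overexpression and 9 to 13 for the difference of effects. The other settings gave 6 to 8 calls in the overexpression (7 with the block) and 8 to 11 for the difference (8 with the block, which lost Peg3 and Slc38a4, adjusted p = 0.0925 and 0.0524). Leaving out a library lowers the residual degrees of freedom by construction. For the overexpression and the difference, calls over all genes are not given beside these counts. The 4 genes below 1 CPM on average (Zim1, Dlk1, Magel2 and H19) had SEs from 0.181 to 0.325 in the main comparisons, so modest changes in them were not detectable at this depth.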

Other observations

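A second list of imprinted genes, those outside the 45, held 43 names (41 in the tables), of which 32 were tested in each experiment. In the knockdown 2 of 32 were called, a share near the 5.49% of all genes tested, and both were higher. Both lie in the region of Snrpn and Ndn on chromosome 7. Mkrn3, Snurf and Snhg14 of the same region were not called (log2 fold changes 0.08, -0.28 and -0.06). Peg12 was at 1.53, 1.63 and 1.45 CPM in CTR KD and 2.13, 2.45 and 2.11 CPM in YAP KD (log2 fold change 0.53, SE 0.126, adjusted p = 0.0404, edgeR). Atp10a was at 21.6, 22.6 and 20.98 CPM in CTR KD and 25.2, 25.02 and 24.3 CPM in YAP KD (0.19, SE 0.0483, adjusted p = 0.0492). For both genes the groups did not overlap. In the overexpression 2 others of the 32 were called, both higher, against 2.13% of all genes tested. Tspan32, next to Cd81 and Ascl2, was at 0.464, 0.472 and 0.685 CPM in CTR OE and 0.894, 0.987 and 1.11 CPM in YAP OE (0.88, SE 0.210, adjusted p = 0.0420), and its groups were separate. Ppp1r9a, next to Peg10 and Sgce, was at 45.2, 47.2 and 48.3 CPM in CTR OE and 53.8, 56.5 and 50.5 CPM in YAP OE (0.19, SE 0.0467, adjusted p = 0.0459). Its groups were separate as well. In each experiment the other 30 genes tested were not called, among them Casd1, Pon2 and Pon3, which lie near Peg10 and Sgce. The calls of Peg12, Atp10a, Tspan32 and Ppp1r9a had adjusted p-values from 0.0404 to 0.0492 (edgeR). They were not followed in the alternative fits or with libraries left out.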
